A study of Mus musculus with 4 samples.

Results

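The microRNAs miR-191 and miR-425 are cut from neighbouring hairpins of a single primary transcript. They were examined here in small RNA sequencing of exosome-enriched preparations from the supernatant of C8-D1A cells, an established line of mouse cerebellar astrocytes with a wild-type genotype. The rule took every arm of either hairpin, which gave 4 rows of the 389 mature miRNAs listed, namely mmu-miR-191-5p, mmu-miR-191-3p, mmu-miR-425-5p and mmu-miR-425-3p. The pair was selected on the values of the same libraries, because a 5p arm of each hairpin was higher after heat stress. The difference between the groups is therefore described for these rows without a test.

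The control group was held at 37 °C for 8 h according to the sample labels. The culture methods give 2 h for it instead. The heat stress group spent 2 h at 42 °C, followed by 6 h of rewarming at 37 °C. Each group held 2 libraries, described as biological replicates, from a single cell line cultured with fetal bovine serum. The question was how heat stress changed the miRNA content of astrocyte-derived preparations.

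A primary miRNA transcript is cleaved in the nucleus into hairpins of the kind shown here, and Dicer then releases a short duplex from each hairpin. One strand, from the 5p or the 3p arm, is usually kept in an Argonaute protein and the other is degraded. The seed, bases 2 to 8 of the mature strand, is the main determinant of which mRNAs are bound. Both miR-191 and miR-425 are found in many cell types. MiR-191-5p is often used as a reference miRNA in qPCR. MiR-425-5p is known as a regulator of human NPPA, which encodes the atrial natriuretic peptide, and this was not examined here.

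The 4 mature sequences are shown first because the seeds define what each arm could bind and whether reads could be shared with another miRNA. They are from RefSeq, build GRCm38.p6, written 5′ to 3′ with the seed in capitals.
miR-191-5p: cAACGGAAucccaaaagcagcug
miR-191-3p: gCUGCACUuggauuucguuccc
miR-425-5p: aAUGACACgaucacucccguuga
miR-425-3p: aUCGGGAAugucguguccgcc
The 4 seeds differed from each other. Of the 1678 mature mouse sequences in the RefSeq table that each was compared with, none had the seed of either miR-191 arm or of miR-425-3p. The seed of miR-425-5p was shared with 1 miRNA, miR-489-3p, which is not among the listed rows. The nearest other mature sequence lay 8 single-base edits (substitutions, insertions or deletions) from each 5p arm and 7 from each 3p arm, so no near-identical sequence was found among those compared. Of the 389 listed miRNAs, 325 had a sequence in that table, and the others were not compared. Both 5p arms were 23 bases long, and no length correction was made. The libraries were made by ligation at both ends and PCR, and how evenly these steps took up different sequences was not tested. Comparisons between different miRNAs or arms are therefore of sequenced values only.

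The hairpins are also from RefSeq, with the mature arms in capitals to show which part of each precursor was counted.
Mir191: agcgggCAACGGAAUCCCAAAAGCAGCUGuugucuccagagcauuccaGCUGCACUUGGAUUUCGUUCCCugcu
Mir425: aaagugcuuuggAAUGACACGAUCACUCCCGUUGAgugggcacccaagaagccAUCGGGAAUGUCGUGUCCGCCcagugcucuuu
Mir191 lies on the plus strand at chr9:108568319-108568392 and Mir425 on the same strand at chr9:108568777-108568861, with 384 bases between them. The miR-191-5p strand covers bases 7 to 29 of its hairpin and miR-425-5p bases 13 to 35. In the GENCODE M21 annotation of GRCm38, both hairpins lie within the single exon of transcript 4833445I07Rik-201 of the long non-coding RNA gene 4833445I07Rik, at chr9:108567533-108569174, and Mir191 also lies in the intron of its transcript 4833445I07Rik-202. The same annotation starts the protein-coding gene Dalrd3 downstream, at chr9:108569886-108572774, whereas the RefSeq gene Dalrd3 spans chr9:108567484-108572773 and includes both hairpins. GENCODE also lists a miRNA entry, Gm24083, opposite Mir191 on the minus strand. The sources used here do not name the genome build behind the deposited values, and these positions come only from the reference.

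The deposited values are normalized and are not counts, but within each library every value was a whole multiple of 1 step. Counting 1 read for each step, the depth was 43675 to 100933 miRNA reads per library. On that count the 4 rows together took 796, 3, 23 and 15 reads over all libraries for miR-191-5p, miR-191-3p, miR-425-5p and miR-425-3p. The intervals and read limits given here rest on that reading of the step and cover counting error only. A value of 0 allows up to 3 reads.

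MiR-191-5p was the abundant product of the locus in all 4 libraries. Its normalized value was 154 in control library 1 and 77.5 in control library 2. In the heat stress group it was 288 in library 1 and 219 in library 2. Both heat stress values lay above both control values, and the groups did not overlap. The heat stress mean of 253 ± 48.4 (SD, n = 2) was 2.19 times the control mean of 116 ± 54.4 (SD, n = 2). In a bulk preparation, more vesicles that carry a miRNA and more copies of it per vesicle cannot be told apart. The 2 control libraries differed from each other by 1.99-fold and the 2 heat stress libraries by 1.31-fold, whereas the lowest heat stress value was 1.42-fold above the highest control value. The gap between the groups was thus smaller than the spread between the control libraries.

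The spread between the control libraries was larger than their counting error. The 95% exact Poisson interval of miR-191-5p was 127 to 186 in control library 1 and 62.9 to 94.3 in control library 2. In heat stress libraries 1 and 2 the intervals were 259 to 319 and 191.1 to 250, and neither reached a control interval. Scaled to the miRNA read total of each library (RPM), miR-191-5p was at 2610 RPM in control library 1, 1042 RPM in control library 2, 3606 RPM in heat stress library 1 and 3458 RPM in heat stress library 2, so the order of the libraries was the same on this scale. The lowest heat stress library was then 1.32-fold above the highest control library. By value miR-191-5p ranked 49 and 70 from the top in the control libraries and 38 in each heat stress library.

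**Figure D1:**
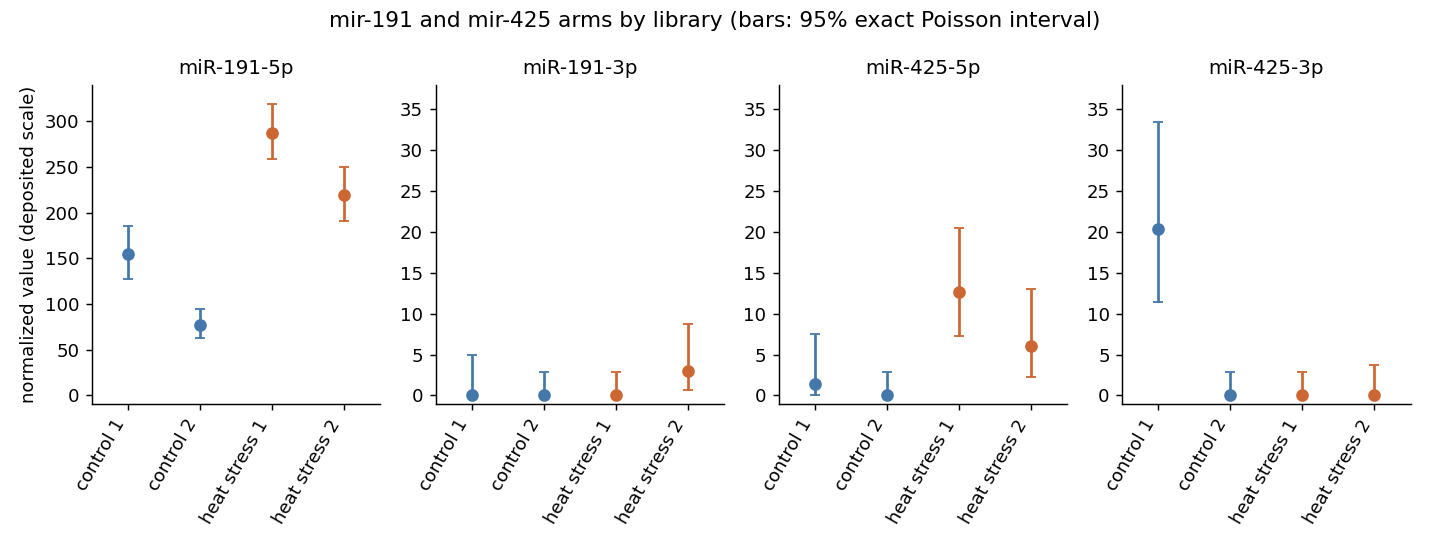
Normalized value of each arm of mir-191 and mir-425 in the control (blue) and heat stress (orange) libraries, 1 panel per arm. Bars are 95% exact Poisson intervals if a step is worth 1 read. MiR-191-5p has its own axis and reaches 288, while the other 3 arms stay at or below 20.3.

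MiR-425-5p was scarce. It was at 1.35 in control library 1 and at 0 in control library 2, which correspond to 1 and 0 reads. After heat stress it was at 12.6 and 6.01, or 16 and 6 reads, and both values lay above both control values. The group means were 0.677 ± 0.958 (SD, n = 2) and 9.33 ± 4.69 (SD, n = 2), and their ratio was 13.8. With 22 reads in the heat stress group against 1 in the control group, the ratio of the pooled reads on the deposited scale was 19.6, with a 95% exact counting interval from 3.17 to 809. This interval covers the reads of these libraries and not the spread between preparations, and its width shows how little 1 control read fixes the size of the difference. The Poisson interval of heat stress library 2, from 2.20 to 13.1, overlapped those of control library 1 (0.0343 to 7.55) and control library 2 (0 to 2.89). That of heat stress library 1, from 7.23 to 20.5, lay above control library 2 and overlapped control library 1. For miR-191-5p the same pooled ratio was 2.44, with a counting interval from 2.08 to 2.86. Both pooled ratios use the contrast that chose the pair and leave out the spread between libraries. Neither interval is therefore read as a test.

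The 3p arms were at 0 in most libraries. MiR-191-3p was at 3.00 in heat stress library 2, or 3 reads, and at 0 in the other 3 libraries. Since a value of 0 allows 3 reads, no difference between the groups was detectable for this arm at this depth. MiR-425-3p was at 20.3 in control library 1, or 15 reads, and at 0 in control library 2 and in both heat stress libraries. The control value of miR-425-3p therefore came from 1 library, and the groups overlapped at 0.

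Across the table, limma was fitted to log2(value + 1) for the 313 miRNAs whose mean value reached 1. The threshold, taken from the study's methods, was a change above 2-fold and p under 0.05 before adjustment. It was passed upwards by 14 miRNAs, 4.47% of those tested, and downwards by 9. Both heat stress libraries lay above both control libraries for 50 miRNAs, or 15.97%. An unadjusted limma p under 0.05 was found for 23 miRNAs, and 0 of these were left when limma's p was corrected by Benjamini-Hochberg. Of the 4 rows of the pair, 3 were tested, and miR-191-3p was left out by its mean value of 0.751. Of these 3, miR-425-5p was past the threshold, miR-191-5p and miR-425-3p were not, and both 5p arms had groups that did not overlap. The rule used this same contrast, so nothing is read from these counts.

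On the log2(value + 1) scale the difference between heat stress and control was 1.19 for miR-191-5p, 2.67 for miR-425-5p and -2.21 for miR-425-3p. The median of all 313 miRNAs was 0.12 with the deposited scaling and 0.02 when values were scaled to library totals. Relative to the median with the deposited scaling, the difference was 1.07 for miR-191-5p and 2.55 for miR-425-5p. Ordered by this difference from the highest, miR-425-5p ranked 17 and miR-191-5p ranked 85 of 313. The value of miR-191-5p was 0.70 without control library 2 and 1.68 without control library 1, and that of miR-425-3p was 0 without control library 1.

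To place the spread of miR-191-5p among miRNAs of adequate depth, the 104 miRNAs that had 10 reads or more in each of the 4 libraries were considered. The median ratio of the higher to the lower library among them was 1.61 in the control group and 1.43 in the heat stress group, so the control libraries differed more for miR-191-5p (1.99) and the heat stress libraries less (1.31). Both heat stress libraries were above both control libraries for 20 of the 104. The ratio of the lowest heat stress to the highest control value was at least that of miR-191-5p for 5, namely miR-191-5p itself, miR-501-3p, let-7d-5p, miR-466i-5p and miR-196b-5p. These names were found after the values had been seen.

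Sequenced values of the 5p arms of the 2 hairpins were then compared within each library. MiR-191-5p exceeded miR-425-5p in 4 of 4 libraries, although their hairpins lie on the same transcript. Their log2 ratio, with 1 added to each value, was 6.04 and 6.29 in the control libraries and 4.40 and 4.97 after heat stress, with a mean of 5.43 ± 0.89 (SD, n = 4). The size of this ratio depends on the scaling and on the value added where miR-425-5p is at or near 0, as in the control libraries, and the mean was 6.50 with 0.1 added. Over all libraries there were 34.6 reads of miR-191-5p for each read of miR-425-5p. The exact two-sided sign-flip permutation test over the 4 libraries gave p = 0.125, which is the smallest it can give with n = 4. After Benjamini-Hochberg adjustment over the 3 within-library ratios tested by this exact permutation, p was 0.188. Nothing is read from either p, since no lower value was possible and the 4 libraries span both conditions.

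The share of miR-425-5p in the reads of both 5p arms was 0.870% of 115 reads in control library 1, with a 95% exact (Clopper-Pearson) interval from 0.0220 to 4.75%. In control library 2 it was 0 of 99 reads, which allows a share of up to 3.03% by the limit of 3 reads and of up to 3.66% by the exact interval. After heat stress it was 4.21% of 380 reads (2.43 to 6.75%) in library 1 and 2.67% of 225 reads (0.985 to 5.71%) in library 2. Each heat stress interval overlapped both control intervals, although both heat stress shares lay above both control shares. Pooled by group, the share was 0.467% of 214 control reads (0.0118 to 2.58%) and 3.64% of 605 heat stress reads (2.29 to 5.45%). The shares hold the values that chose the pair, so the difference between the groups was not tested.

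The arms were used unequally, and not in the same way in the 2 hairpins. For mir-191, the 5p arm made up all reads in 3 libraries, which were 114 reads in control library 1, 99 in control library 2 and 364 in heat stress library 1. It made up 98.6% of 222 reads in heat stress library 2 (exact interval 96.1 to 99.7%). The log2 ratio of 5p to 3p averaged 6.88 ± 1.06 (SD, n = 4) and was above 0 in 4 of 4 libraries. The exact sign-flip permutation p was 0.125 (adjusted 0.188), again the smallest possible, so nothing is read from that p. Since miR-191-3p was at 0 in 3 of the libraries, the size of this ratio is set by the value added, and it averaged 9.46 with 0.1 added. For mir-425, the 3p arm led in control library 1, where 5p was 6.25% of 16 reads (0.158 to 30.2%). The 5p arm took all 16 reads in heat stress library 1 (79.4 to 100%) and all 6 in heat stress library 2 (54.1 to 100%). Control library 2 had no read of either arm. The interval of control library 1 lay apart from those of both heat stress libraries, but the control side of this comparison was a single library. These shares also hold the miR-425-5p values that chose the pair, so the difference between the groups was not tested. The log2 ratio of 5p to 3p for mir-425 was -3.18 in control library 1, 3.77 in heat stress library 1 and 2.81 in heat stress library 2, with a mean of 1.13. Counting control library 2 as 0 gave 0.85 ± 3.13 (SD, n = 4) and an exact sign-flip permutation p of 0.75 (adjusted 0.75), from which nothing is read, since that library had no reads and the others differed in sign.

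Both arms were listed under 1 shared hairpin name for 67 hairpins, and 60 of them had at least 20 reads on the arms together. Arms whose names differ by a locus number, such as miR-125b-5p and miR-125b-1-3p, were not paired. The hairpins mir-486a and mir-486b, with identical reads, were counted separately. The counts and ranks below hold for the hairpins paired in this way. The 5p arm had more reads than the 3p arm in 27 of the 60, and the major arm held a median of 88.2% of the reads. By the share of the major arm among these 60, mir-191 (99.6%) ranked 7 and mir-425 (60.5%) ranked 53. A major arm that differed between libraries, as in mir-425, was found in 21 of the 60, or 35.0%.

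**Figure D2:**
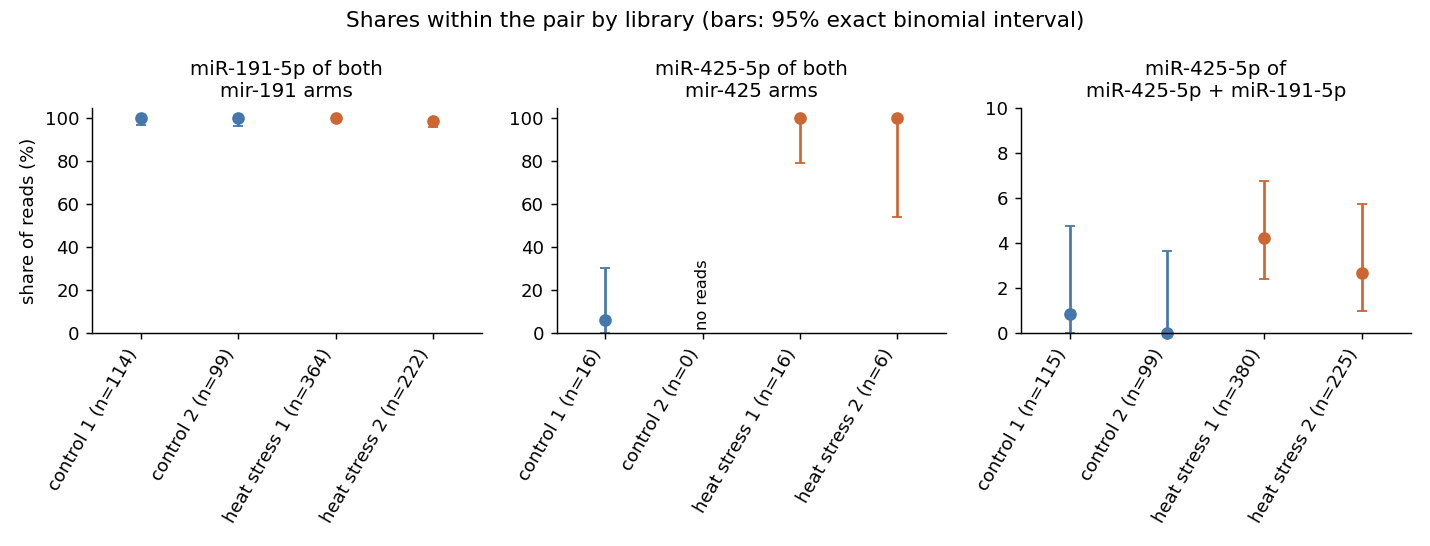
Shares of reads within the pair in each library, if a step is worth 1 read, with 95% exact binomial intervals and the number of reads (n) in the axis labels. MiR-191-5p stays at 98.6% or above of its hairpin. MiR-425-5p is 6.25% of its hairpin in control library 1 and 100% in the heat stress libraries, and its share of both 5p arms does not exceed 4.21%. The shares hold values that chose the pair, and no difference between the groups was tested.

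Because miR-191-5p itself often serves as a reference in qPCR, it was set against 11 other miRNAs used in that way, all of which were listed. Of the 11, miR-16-5p passed the threshold upwards (against 4.47% of all miRNAs tested) and 0 passed downwards. Their median difference was -0.26, against 0.12 for all miRNAs tested. The most abundant of them were miR-423-5p (control 2195 and 1409, heat stress 1408 and 1746), miR-26a-5p (control 959 and 909, heat stress 1505 and 1105) and let-7a-5p, of the let-7 family of differentiation-linked miRNAs (control 717 and 1666, heat stress 843 and 790). The log2 ratio of miR-191-5p to their median was 0.06 in control library 1, -1.77 in control library 2, 0.65 in heat stress library 1 and -0.11 in heat stress library 2, so the groups overlapped. Its mean was higher by 1.12 after heat stress, and by 0.21 without control library 2. The median candidate was miR-25-3p in both control libraries and miR-24-3p in both heat stress libraries, so the groups were set against different miRNAs. Against miR-25-3p alone the mean log2 ratio was higher by 0.47 and the groups overlapped. Against miR-24-3p alone it was higher by 1.46 and the groups did not overlap.

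Taken 1 candidate at a time, the mean log2 ratio of miR-191-5p was higher after heat stress against 10 of the 11, and against 9 of them the groups did not overlap. The change of the ratio was from 0.47 (miR-25-3p) to 2.97 (miR-30e-5p) among the 10, and it was -2.55 against miR-16-5p, whose control values were both 0 and whose heat stress values were 19.0 and 8.01. These ratios share the values of miR-191-5p that the rule used. A rise against miRNAs that changed little follows from that choice, so the counts of candidates describe the libraries and carry no test. Such counts were not made over all miRNAs tested. MiR-93-5p, 1 of the 9, was at 4.06 in control library 1 and at 0 in each other library, so the size of its ratio depends on the value added.

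**Figure D3:**
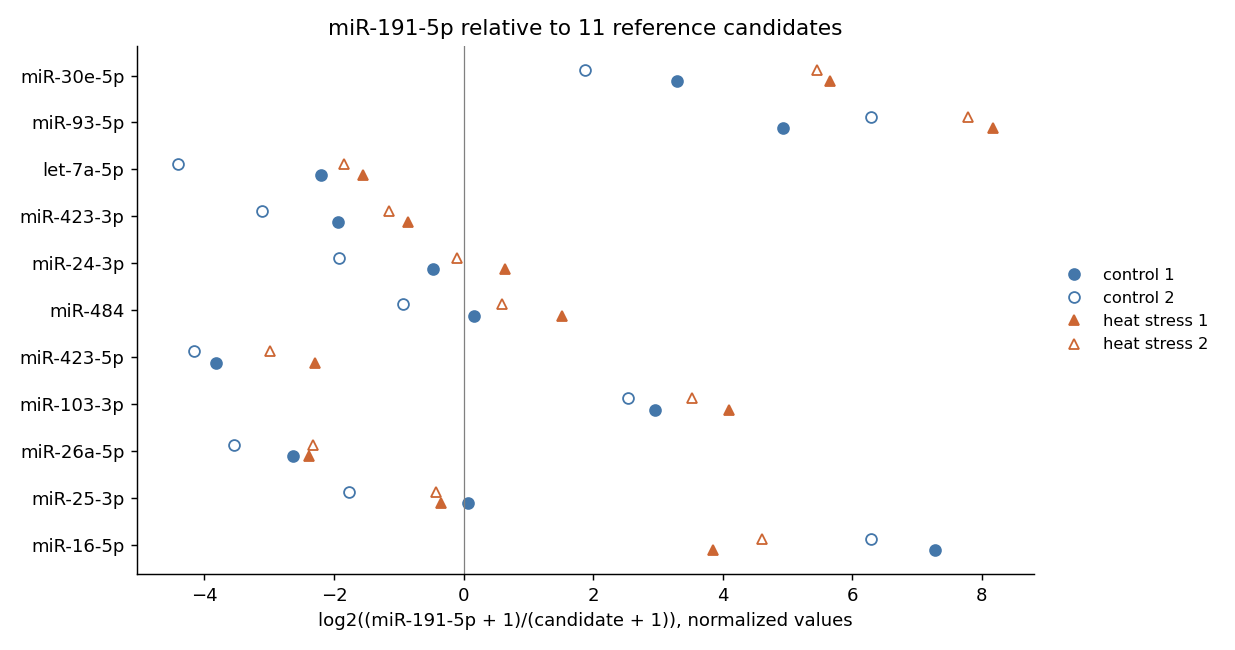
Log2 ratio of miR-191-5p to each of 11 reference candidates, with 1 added to each normalized value. Circles are control libraries and triangles heat stress libraries, filled for replicate 1 and open for replicate 2. In 9 of the 11 rows both triangles lie to the right of both circles, and for miR-16-5p both lie to the left. Every row shares the miR-191-5p values that chose the pair, so this count carries no test.

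The pair lies in a protein-coding gene in RefSeq only, and in a long non-coding RNA gene in GENCODE. Hairpins that share a protein-coding host transcript in GENCODE were taken for comparison. They came from Mcm7 (mir-106b, mir-93 and mir-25), Nfyc (mir-30e and mir-30c-1), Smc4 (mir-15b and mir-16-2) and 2010111I01Rik (mir-23b, mir-27b and mir-24-1). Of 20 mature miRNAs in the list, 16 were listed and 15 tested. The threshold was passed upwards by 1, miR-16-5p, and downwards by 0, with a median difference of 0.07. Of all miRNAs tested, 4.47% passed upwards. MiR-16-5p can also come from Mir16-1 elsewhere in the genome. Unequal levels within a cluster were also present among these hairpins. In the Mcm7 cluster, miR-25-3p had 1203 reads over all libraries, miR-106b-3p 76, miR-25-5p 50, miR-106b-5p 10 and miR-93-5p 3. MiR-25-3p had control values of 148 and 266 and heat stress values of 364 and 293, with groups that did not overlap, and was not past the threshold. Its neighbour miR-93-5p was at 4.06 in control library 1 and at 0 in the other 3 libraries. The other abundant members were miR-24-3p (214 and 296 against 183 and 236) and miR-27b-3p (104 and 151 against 157 and 110), whose groups overlapped, and miR-24-3p can also come from Mir24-2 elsewhere in the genome. No difference between these clusters and the pair was tested.

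The miRNAs with the most similar course over the 4 libraries were found by the root-mean-square distance between log2(value + 1) profiles, each centred on its own mean, over the other 312 miRNAs tested. For miR-191-5p they were miR-34c-5p, of the p53-responsive miR-34 family (distance 0.137), miR-8114 (0.180), miR-1981-5p (0.324), miR-501-3p (0.379) and miR-100-5p, of the miR-99/100 family (0.416), against a median distance of 1.20. MiR-34c-5p had control values of 12.2 and 5.48 and heat stress values of 18.2 and 16.01, with the lowest value in control library 2 as for miR-191-5p. The partner miR-425-5p ranked 50 by distance from miR-191-5p (0.772). Both 5p arms were chosen as higher after heat stress. Their nearness to each other and to other miRNAs higher after heat stress follows in part from that rule and was not tested.

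For miR-425-5p the nearest were miR-503-3p (0.447), miR-1843a-3p (0.466), miR-365-3p (0.472), miR-126a-3p (0.473) and miR-92b-3p (0.499), against a median of 1.62. MiR-191-5p ranked 16, a rank that again rests on the values that chose the pair. All 5 nearest were at 0 in control library 2, and 4 of them also in control library 1, so the likeness rests mainly on control values of 0. MiR-126a-3p, an endothelial miRNA hosted by Egfl7, had control values of 2.71 and 0 and heat stress values of 32.4 and 8.01.

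**Figure D4:**
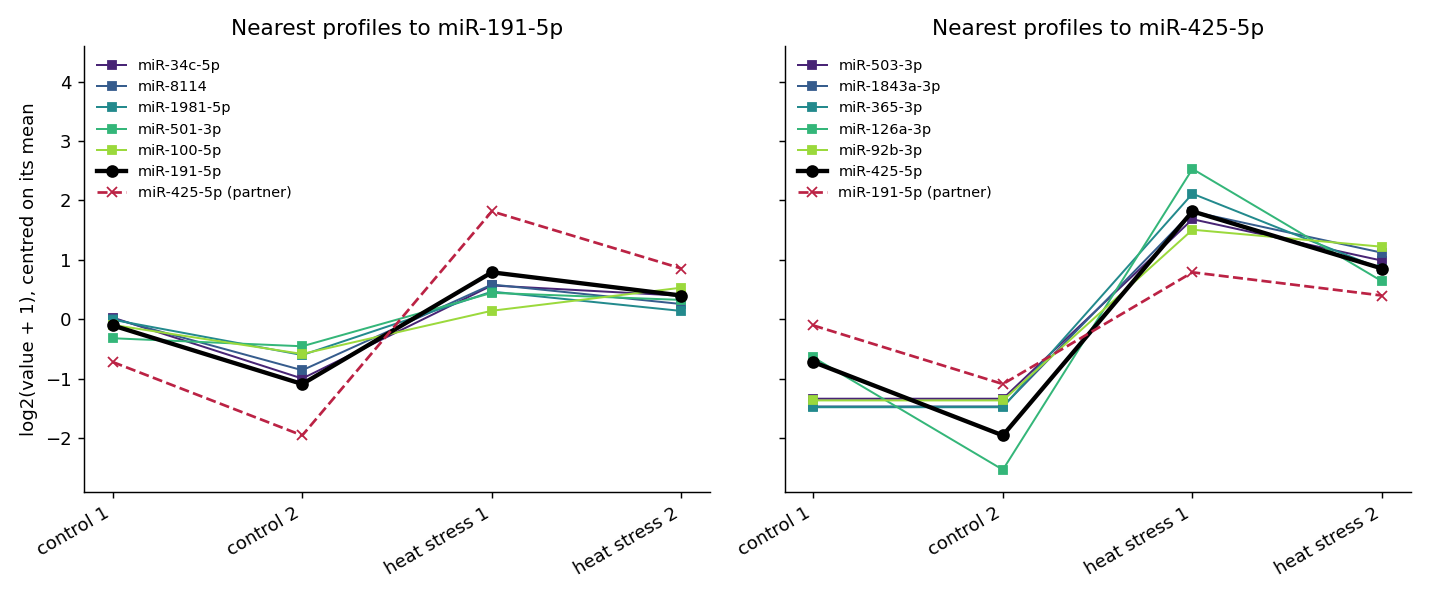
Log2(value + 1), centred on the mean of each miRNA, in the 4 libraries for miR-191-5p (left, black) and miR-425-5p (right, black), their 5 nearest miRNAs and the partner of the pair (dashed). Lines only join the points of a miRNA. Control library 2 is the lowest point of both 5p arms and heat stress library 1 the highest.

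MiRNAs of other cell types were present in the preparations. Of 9 blood cell miRNAs, 6 were listed, and 0 of the 4 tested passed the threshold (median difference 0.02). Their summed value was 1909 and 1145 in the control group against 1596 and 1124 in the heat stress group. This sum rested mainly on miR-486a-5p and miR-486b-5p. Their rows held identical values, and both rows entered the sum and the 4 tested, so the same values were counted in each. MiR-144-3p and miR-223-3p were at 0 in both control libraries and in heat stress library 2. The red cell miRNA miR-451a was at 17.6 and 23.5 against 15.0 and 37.0. Of 9 neuronal miRNAs, 6 were listed and tested, 0 passed the threshold (median -0.26), and the sums were 768 and 541 against 628 and 463. Most of this was miR-128-3p, and miR-124-3p, the defining neuronal miRNA, did not exceed 4.06. Of the 6 endothelial, liver and muscle miRNAs, 5 were listed, with sums of 133 and 142 against 75.9 and 111. Of the 4 tested, miR-126a-3p was higher and miR-1a-3p lower at the threshold (median -0.24). The liver miRNA miR-122-5p was at 90.8 and 33.6 against 20.5 and 76.1. The astrocyte-abundant miR-125b-5p, miR-26a-5p and miR-21a-5p were at 228 or above in every library. Of the 6 miRNAs of that list, 5 were listed and tested, 0 passed the threshold (median 0.35), and their sums were 3690 and 3373 against 4751 and 5087, so this sum was also higher in both heat stress libraries. It was carried by miR-125b-5p (2134 and 1612 against 2402 and 3254) and miR-26a-5p, the 2 members whose groups did not overlap. MiR-26a-5p is also 1 of the reference candidates. Over all miRNAs tested, both heat stress libraries lay above both control libraries for 50 of 313 (15.97%), and 4.47% passed the threshold upwards. With so few members in each list, nothing is read from these counts. The groups overlapped for miR-21a-5p (228 and 517 against 465 and 412), miR-143-3p (321 and 309.8 against 354 and 279) and miR-29a-3p (48.8 and 24.3 against 25.3 and 36.0). The part of any of these in the values of miR-191-5p and miR-425-5p was not tested.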

How the data were processed

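Small RNA was sequenced from exosome-enriched preparations in 2 control and 2 heat stress libraries. According to the methods, reads were trimmed and filtered and compared with the reference genome with Bowtie, whereas the submitters' processing notes name FastQC and BWA. The deposited signal is 1 normalized value per miRNA and library, a multiple (tolerance 0.01) of 1 step. The inverse of each step, from 0.738 to 1.28, was equal to a size factor computed from the multiples by median of ratios. The authors also deposited their own fold changes and p-values, which were not used. Genome build, miRNA release and normalization are not given in the sources used here.

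The groups were compared on log2(value + 1) by limma (version 3.58.1, R version 4.3.3), with condition as the only term. The script was tested on simulated data. Single ratios were tested with an exact sign-flip permutation over libraries. Exact Poisson and Clopper-Pearson intervals were computed with scipy (version 1.17.1) at 95%. With 2 libraries against 2, no exact permutation test can give a p below 0.333. The members, lists and tests were chosen with earlier results of these data known, and the lists were written from general knowledge. Named miRNAs were all rows of the pair, the 5 nearest profiles of each 5p arm and up to 3 abundant members of each list. Other miRNAs in the text, among them miR-16-5p, miR-93-5p, miR-25-5p, miR-143-3p, miR-29a-3p, miR-106b-3p, miR-106b-5p, miR-30e-5p and miR-124-3p, were named after their values had been seen. Count models were not run, because the criterion for recovering reads from low values was not met in control library 2, which had too few low values, or in heat stress library 2, whose step was too near 1 to be told from rounding. Alternatives were another pseudocount, other filters and scalings, a replicate block, another variance prior and leaving out each library.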

Additional observations from a re-analysis of the deposited data

How the results depend on the processing

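MiR-191-5p kept its direction in every setting that was run, with a log2 difference from 1.09 (library totals) to 1.20 (pseudocount 0.1), and from 0.70 to 1.68 with 1 library left out. MiR-425-5p was at 2.67, and at 4.53 with a pseudocount of 0.1 and 4.66 with log2(CPM + 1), because both control values are near 0. Leaving out 1 library gave values from 2.05 to 3.29. MiR-425-3p ranged from -4.41 (without control library 2) to 0 (without control library 1). A minimum mean value of 10 left only miR-191-5p of the pair. The 5p to 3p log2 ratio of mir-191 was 9.46 and the ratio of miR-191-5p to miR-425-5p 6.50 with a pseudocount of 0.1. The 5p to 3p ratio of mir-425 ranged from -0.12 (without heat stress library 1) to 2.19 (without control library 1), and the cause was not tested.

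Of all miRNAs, 14 were higher and 9 lower at the threshold. There were 6 higher with a minimum mean value of 10, where 159 were tested, and 6 higher with limma's trended variance prior. There were 2 lower with a pseudocount of 0.1 and 3 with log2(CPM + 1). The replicate block gave 10 higher and 4 lower. Same-numbered libraries had deviations with a Pearson correlation of -0.0189 over 313 miRNAs, so no shared deviation was seen. This correlation cannot tell whether they shared a culture or a batch. Leaving out 1 library gave from 10 to 39 higher (39 without heat stress library 1, 37 without heat stress library 2) and from 3 to 27 lower (3 without heat stress library 1, 27 without control library 1, 24 without control library 2). In these fits the lone library is assumed to vary like the other group, and miRNAs at 0 in both libraries of that group have no spread of their own. The depth limits miR-425 most, with 38 reads on both arms in all libraries.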
